A study of Mus musculus with 15 samples.

Results

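The genes of mitochondrial oxidative phosphorylation were followed in the mouse auditory nerve over 14 days after noise. Members were genes picked by a rule on platform symbols for subunits of complexes I to V. The rule took symbols starting with Nduf plus a, b, c, s or v and a number, and Sdha to Sdhd. It also took symbols starting with Uqcr, Cox4 to Cox8 or Atp5. Subunits with other symbols, such as Cyc1 and Ndufab1, fell outside it. This symbol rule gave 81 of the 18193 genes with a probe set naming 1 gene: 35 in complex I, 4 in complex II, 8 in complex III, 17 in complex IV and 17 in complex V. Each gene was read from its brightest probe set, by the mean of the 15 arrays, and the 25% of genes with the lowest means, at or below 4.70 on the log2 scale, were not tested. Of the 81 members, 79 were tested. The other 2, Ndufb4 and Cox7b2, had mean values of 4.32 and 3.60.

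Complexes I to IV pass electrons from NADH and succinate to oxygen, and all but complex II pump protons across the inner mitochondrial membrane. Complex V uses that gradient to make ATP. Most subunits are encoded in the nucleus, and several of complex IV exist as tissue isoforms, so that heart and skeletal muscle use other versions than brain or nerve. Auditory neurons fire at high sustained rates and hold many mitochondria, and noise injury of the cochlea has long been studied for its effects on energy supply and on oxygen radicals.

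The study asked how gene expression in the auditory nerve of CBA/CaJ mice, a strain used for its good hearing, differs between unexposed controls and animals exposed to noise. The 5 groups of 3 arrays were controls without noise, and animals taken immediately, 1 day, 7 days and 14 days after 2 h of octave-band noise at 8 to 16 kHz and 106 dB SPL. The protocol, the same for all 15 samples, speaks of young adults of 5 to 12 weeks. Each array held RNA of the nerve-bearing core of both cochleae of 1 animal, so the 3 arrays of a group were 3 animals. The 3 controls were female and the 3 animals at 1 day were male. The groups taken immediately, at 7 days and at 14 days each held 2 females and 1 male, which gave 9 females and 6 males in all. A fit with sex as a term is given beside each call of a member in the main fit. Fits of single probe sets were run without a sex term. The microdissected core holds neuron bodies, nerve fibres, glia, vessels and bone. In such bulk tissue fewer cells of a type and less RNA per cell cannot be told apart.

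Cell markers were read as well, although passing the filter does not by itself check the tissue label. All 20 spiral ganglion neuron markers and the 11 Schwann cell and myelin markers with a probe set were above the filter. Among them Nefl had a mean log2 value of 13.39, Pmp22 13.28 and Prph 5.84. Markers of other cells passed it too, namely all 8 bone and all 9 endothelium markers with a probe set and 14 of 15 macrophage markers. Array medians lay between 5.87 and 5.92. The oxidative phosphorylation genes were bright and tight: the median member had a mean value of 11.31 and a within-group SD of 0.0691, against 7.69 and 0.1176 for the median of all 13644 genes tested.

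The promoters of the 5 members that passed a test are shown because these genes carry the differences described further on. The windows come from RefSeq (GRCm38.p6) and run 5′ to 3′ on the gene's strand from 250 bases before to 50 bases after the start site. Capitals mark matches on either strand to the cores of nuclear respiratory factor 1 (NRF1, GCGCANGCG) and of the ETS family that includes GABP (CCGGAAG), both known regulators of respiratory genes in mammals. The windows are chr17:83514284-83514583 on the minus strand for Cox7a2l, chr9:108936398-108936697 on the plus strand for Uqcrc1, chr9:57520982-57521281 on the plus strand for Cox5a, chr13:74350191-74350490 on the minus strand for Sdha and chr19:7217567-7217866 on the minus strand for Cox8a.
Cox7a2l: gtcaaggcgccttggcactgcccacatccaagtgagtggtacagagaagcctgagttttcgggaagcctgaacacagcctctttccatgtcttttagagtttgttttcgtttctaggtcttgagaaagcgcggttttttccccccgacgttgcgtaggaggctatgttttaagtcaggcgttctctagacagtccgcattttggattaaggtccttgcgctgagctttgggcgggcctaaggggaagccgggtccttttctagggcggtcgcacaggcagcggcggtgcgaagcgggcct
Uqcrc1: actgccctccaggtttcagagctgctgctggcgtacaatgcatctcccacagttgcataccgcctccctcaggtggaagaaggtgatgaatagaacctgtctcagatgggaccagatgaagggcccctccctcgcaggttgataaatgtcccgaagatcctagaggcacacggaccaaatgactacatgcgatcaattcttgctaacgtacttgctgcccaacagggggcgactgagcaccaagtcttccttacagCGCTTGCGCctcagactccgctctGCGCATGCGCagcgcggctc
Cox5a: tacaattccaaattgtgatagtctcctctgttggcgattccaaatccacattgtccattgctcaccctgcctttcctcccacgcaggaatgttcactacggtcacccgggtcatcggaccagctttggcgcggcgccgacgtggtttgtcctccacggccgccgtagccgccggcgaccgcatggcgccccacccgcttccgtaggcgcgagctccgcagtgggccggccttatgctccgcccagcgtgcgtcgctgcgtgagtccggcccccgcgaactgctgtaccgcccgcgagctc
Sdha: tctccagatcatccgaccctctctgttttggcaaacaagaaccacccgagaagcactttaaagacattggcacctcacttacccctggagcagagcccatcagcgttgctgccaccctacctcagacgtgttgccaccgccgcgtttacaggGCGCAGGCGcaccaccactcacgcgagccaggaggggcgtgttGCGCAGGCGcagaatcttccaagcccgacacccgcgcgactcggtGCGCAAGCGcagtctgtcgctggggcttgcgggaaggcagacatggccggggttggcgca
Cox8a: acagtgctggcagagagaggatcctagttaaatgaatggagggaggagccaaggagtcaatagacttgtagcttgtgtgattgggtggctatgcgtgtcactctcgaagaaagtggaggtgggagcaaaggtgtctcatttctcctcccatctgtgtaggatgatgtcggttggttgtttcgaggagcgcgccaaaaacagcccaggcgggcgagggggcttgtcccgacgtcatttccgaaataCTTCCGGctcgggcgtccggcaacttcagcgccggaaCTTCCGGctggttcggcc
The Uqcrc1 window holds NRF1 matches starting 7 bases into the transcript and, as an overlapping pair on both strands, at bases 31 and 32. Sdha has 3 NRF1 matches, which start at -98, -55 and -10 from the start site. Cox8a has 2 ETS matches, at -5 and 33, and the letters of neither core are in the windows of Cox7a2l and Cox5a.

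Of the 81 members, 66 had a window in that table. The NRF1 core was in 18 of the 66 (27.3%), against 7.03% of all 27025 genes with a window. The ETS core was in 17 (25.8%), against 9.93%, and the core of YY1 (AAGATGGCG), a factor also known from respiratory gene promoters, in 6 (9.09%), against 1.64%. At least 1 of these 3 cores was in 34 member windows (51.5%) and in 16.5% of all genes. The core of the estrogen-related receptors (AAGGTCA) was in 8 member windows (12.1%), against 5.38% of all genes. The CCAAT box, a general promoter element, was in 28 member windows (42.4%), against 41.1% of all genes. By complex, the NRF1 core was in 6 of 31 windows for complex I, 2 of 3 for complex II, 2 of 5 for complex III, 1 of 12 for complex IV and 7 of 15 for complex V. A match is a description of letters in these windows and not of a bound site.

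Immediately after noise, most oxidative phosphorylation genes had slightly lower values than in controls, and 1 passed the test. Of 79 tested, 64 (81%) had a negative log2 difference, against 54.7% of all genes, and their median difference was -0.06, against -0.017 for all genes. Cox7a2l was called lower and 0 members higher in limma at an adjusted p under 0.05, where 0.931% of all genes were called. At an unadjusted p under 0.05, 11 members were lower and 1 was higher, where 8.22% of all genes were lower and 7.26% higher. The differences ran from -0.22 to 0.25. For 63 of 79 members (79.7%) the 95% interval of the difference lay within a 1.2-fold change in either direction, a limit chosen after the values were seen. That held for 35.2% of all genes, whose median within-group SD was larger (0.1176, against 0.0691 for members).

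Cox7a2l encodes a protein that joins complexes III and IV into supercomplexes. Its log2 values were 10.74, 10.78 and 10.70 in the animals taken immediately after noise, against 10.98, 10.96 and 10.93 in controls. The 3 noise arrays all lay below the 3 controls. The difference was -0.22 ± 0.04 (SE), a 0.861-fold level, with an adjusted p of 0.034 in limma. With sex as a term it was -0.21 with an adjusted p of 0.0616. The call also ended without the trend of the variance (adjusted p = 0.0905), with the 2 groups fitted alone (0.0644) and when any control, any immediate array or the third 1-day array was left out, then with adjusted p values up to 0.179. The other 2 probe sets of the gene gave -0.25 and -0.24. At 1 day the values were 10.94, 10.84 and 10.89, at 7 days 10.85, 10.94 and 10.86, and at 14 days 10.89, 10.81 and 10.88. All 9 of these later arrays lay above the 3 immediate ones, and none of the later differences from controls passed the test.

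By complex, the medians of the differences immediately after noise were -0.063 for complex I, -0.07 for complex II, -0.068 for complex III, -0.047 for complex IV and -0.053 for complex V. Negative differences were found for 30 of 34 members of complex I, 3 of 4 of complex II, 6 of 8 of complex III, 11 of 16 of complex IV and 14 of 17 of complex V. In complex I, the accessory subunits Ndufb3 and Ndufa7 had differences of -0.18 ± 0.05 (adjusted p = 0.128) and -0.16 ± 0.06 (adjusted p = 0.191). In complex III, the core subunit Uqcrc2 had a positive difference of 0.16 ± 0.07 (adjusted p = 0.299), while its second probe set gave -0.09. In complex V, subunit b (Atp5pb) had 0.06 ± 0.05 (adjusted p = 0.663), and its second probe set -0.10.

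**Figure D1:**
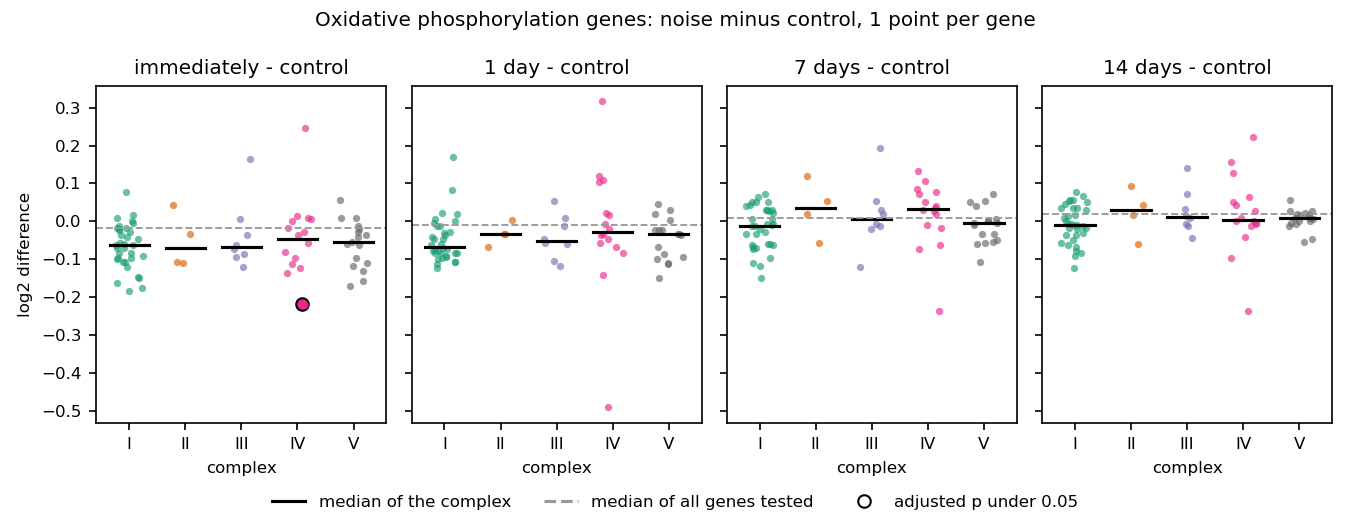
Log2 difference of each tested oxidative phosphorylation gene, noise minus control, by complex (x axis) in 4 panels, 1 for each time after noise; solid bars are medians of a complex and the dashed line is the median of all genes tested. In the panels for the immediate and 1-day animals the medians of all 5 complexes are below 0, with 1 outlined point, Cox7a2l, called immediately after noise.

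The small common shift lay within the overlapping values of single animals. For each array, the median over the 79 members of the deviation from each gene's mean was 0.035, 0.023 and -0.007 in controls, 0.013, -0.025 and -0.100 immediately after noise, 0.051, -0.095 and -0.052 at 1 day, 0.033, 0.010 and 0.004 at 7 days, and 0.023, 0.004 and 0.055 at 14 days. The values at both early times overlapped those of controls. Over all genes tested the same median was -0.005, 0.003 and -0.001 in controls. It was 0.006, -0.025 and -0.020 immediately after noise and 0.001, -0.009 and -0.013 at 1 day. The second immediate array thus had -0.025 both over the members and over all genes. By the member median, the lowest arrays were the third immediate animal and the second and the third 1-day animals, all male. The first 1-day animal, also male, was among the highest, and the males at 7 and 14 days had 0.033 and 0.023. The pooled SD between replicates of the member median was 0.0453. The group means were 0.017 ± 0.022 in controls, -0.037 ± 0.057 immediately, -0.032 ± 0.075 at 1 day, 0.016 ± 0.016 at 7 days and 0.027 ± 0.026 at 14 days (SD, n = 3 each).

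**Figure D2:**
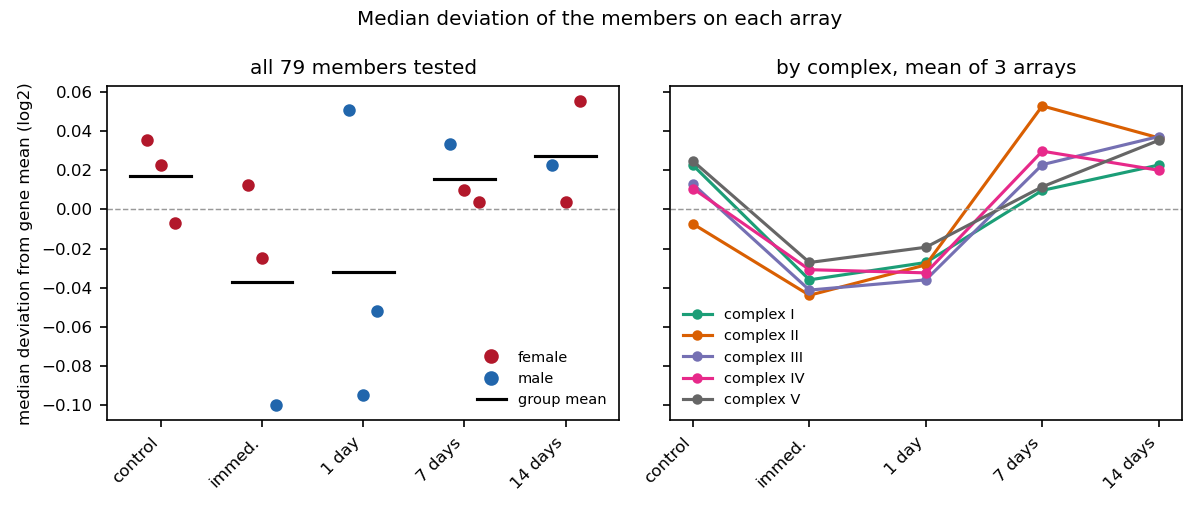
Median log2 deviation of the 79 tested members from their gene means, by group on the x axis; in the left panel each point is 1 array, coloured by sex, with bars for group means, and in the right panel each line is 1 complex. Points of the immediate and 1-day groups reach from -0.100 to 0.051 and overlap the controls, and the 5 complexes run together.

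At 1 day after noise, 0 of 79 members passed the test against controls in limma, where 3.18% of all genes were called. At an unadjusted p under 0.05, 6 members were lower and 0 higher, where 10.2% of all genes were lower and 7.7% higher. Of the members, 60 (75.9%) had a negative difference, against 52.1% of all genes, and the median was -0.047, against -0.01. The complex medians were -0.067 (I), -0.033 (II), -0.052 (III), -0.027 (IV) and -0.033 (V). The 95% interval lay within 1.2-fold for 71 of 79 members (89.9%), against 33.5% of all genes. Leaving out the first 1-day array gave 1 call, Atp5mpl, a small subunit of complex V, at a lower value.

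The members with the smallest p at 1 day included Cox5a, a nuclear-encoded subunit of complex IV, at -0.14 ± 0.05 (adjusted p = 0.106), and Ndufb9, an accessory subunit of complex I, at -0.12 ± 0.05 (adjusted p = 0.249). Among positive differences, Cox6b2, the testis isoform of subunit 6b, had 0.32 ± 0.18 (adjusted p = 0.379), and the complex I subunits Ndufb1 and Ndufa2 had 0.17 ± 0.11 (adjusted p = 0.454) and 0.08 ± 0.06 (adjusted p = 0.475). The flavoprotein Sdha had -0.03 by its brightest probe set. Its second probe set, in a fit of all probe sets by themselves, gave -0.20 ± 0.04 with an adjusted p of 0.025. That fit had no sex term, while the controls were female and the 1-day animals male. The Sdha probe sets therefore differed in the call at 1 day.

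Markers of other cells moved at 1 day. Of 14 macrophage markers tested, 8 were higher at 1 day than in controls (3 with sex as a term) and 0 lower, and the mean log2 level of the 15-marker list lay between 7.72 and 7.90 at 1 day, against 6.76 to 7.10 in controls. Of 11 Schwann cell and myelin markers, 4 were lower (1 with sex as a term), with list means of 10.52 to 10.69 at 1 day and 10.67 to 10.80 in controls. Of 20 spiral ganglion neuron markers, 1 was lower and 1 higher (0 with sex as a term), with list means of 10.20 to 10.21 at 1 day and 10.29 to 10.31 in controls. Their part in the values of the oxidative phosphorylation genes was not tested.

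Cox8b had the most negative difference of any member against controls, and that difference did not pass the test. It encodes the isoform of subunit 8 that rodents use in heart and skeletal muscle. Its log2 values at 1 day were 8.56, 8.61 and 8.57, against 9.07, 9.09 and 9.05 in controls. All 3 arrays at 1 day lay below the 3 controls, and the difference was -0.49 ± 0.17 (0.712-fold, adjusted p = 0.136). With sex as a term the difference was -0.74 (adjusted p = 0.114). Immediately after noise the values were 9.15, 8.92 and 8.97. At 7 days they were 9.35, 8.85 and 8.30, the widest spread of any group, and at 14 days 8.87, 8.73 and 8.90. With the first or the third 7-day array left out of the shared fit, the 1-day difference was called, at an adjusted p of 0.0239 or 0.0161. With the arrays of controls and 1 day alone it was called at 0.00385. None of these fits had a sex term, and in each the 3 controls were female and the 3 1-day animals male. In the last one noise and sex cannot be told apart at all.

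The muscle gene Ttn, which encodes titin, had log2 values of 5.48, 5.41 and 5.72 at 1 day, against 6.65, 6.48 and 6.64 in controls, and was called lower, with a difference of -1.05 ± 0.24 (adjusted p = 0.0291, and 0.0428 with sex as a term). At 7 days Ttn was at 6.98, 6.19 and 5.58, in the same order over the 3 animals as Cox8b. Ttn was the 1 marker of 9 tested that was called at 1 day against controls, and the median difference of the 9 was 0.05. Of the others, Myl1 had -0.34 (adjusted p = 0.0573) and Pvalb -0.27 (adjusted p = 0.0669), while the creatine kinase Ckm averaged 5.55 both at 1 day and in controls. Casq1, a calcium-binding protein of muscle, averaged 7.34 at 1 day, against 7.23 in controls. It was called lower at 7 days than at 1 day, with a difference of -0.69 ± 0.18 (adjusted p = 0.0284, and 0.137 with sex as a term), while Ttn and Cox8b had higher means at 7 days than at 1 day. Of its 17 markers 8 were below the filter, including the muscle actin Acta1, at 3.18 to 4.39 over all arrays, and the myosin heavy chains Myh1, Myh2 and Myh4. The brown fat gene Ucp1 was also below the filter, at 3.60 to 4.59. Of the 2 brown fat markers tested, Dio2, a deiodinase that many tissues express, was higher immediately after noise than in controls, by 2.35 ± 0.22 (adjusted p = 0.000125). Of 8 bone markers, 2 were lower at 1 day than in controls (0 with sex as a term). Their list means were 7.28 to 7.72 at 1 day and 7.88, 8.00 and 9.16 in controls. Whether RNA of other cells took part in the Cox8b values was not tested.

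**Figure D3:**
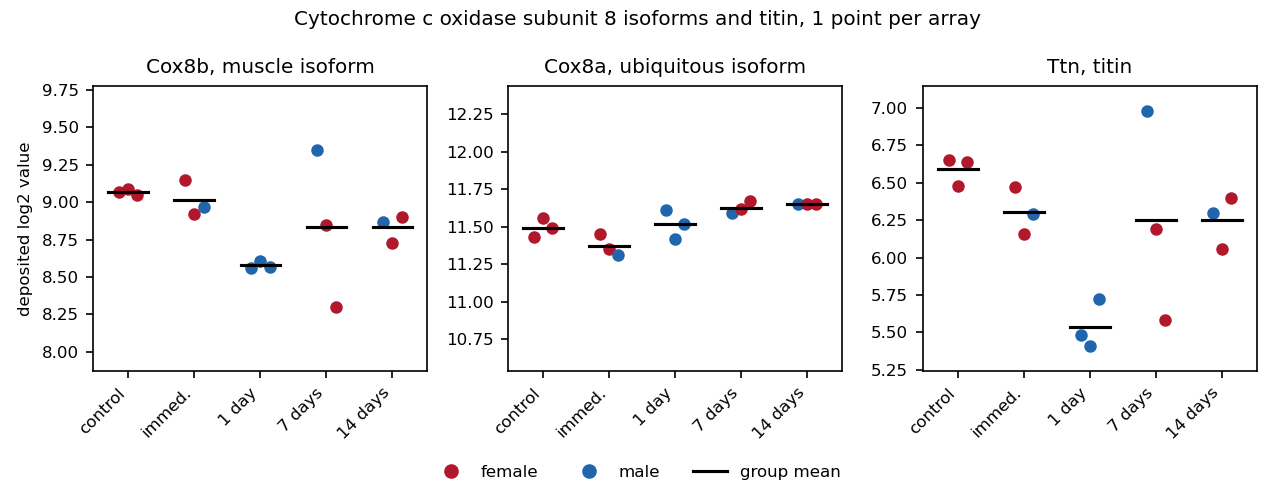
Deposited log2 values (y axis) of Cox8b, Cox8a and Ttn by group (x axis), 1 point per array coloured by sex, with bars for group means; the 3 panels span equal ranges. Cox8b and Ttn are low in all 3 animals at 1 day and spread widely at 7 days, while Cox8a stays between 11.31 and 11.67.

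The other isoforms had adjusted p values above 0.05 in every comparison. Muscle isoform Cox6a2 averaged 5.73 ± 0.20 in controls, 5.60 ± 0.18 immediately, 5.84 ± 0.17 at 1 day, 5.81 ± 0.27 at 7 days and 5.69 ± 0.20 at 14 days (SD, n = 3 each). Its ubiquitous counterpart Cox6a1, with the highest probe set signal of complex IV, averaged 13.45 ± 0.02, 13.45 ± 0.02, 13.39 ± 0.07, 13.48 ± 0.11 and 13.45 ± 0.02 in the same order. Neither isoform was called in any comparison. Muscle isoform Cox7a1 stayed between group means of 6.44 and 6.63, and Cox7a2 between 12.44 and 12.55. Cox4i2, known from lung and from low oxygen, stayed between 5.11 and 5.18, and Cox4i1 between 12.77 and 12.84. Signals of different probe sets do not give the ratio of isoforms.

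Of the remaining isoforms, Ndufa4l2, a relative of Ndufa4 induced by low oxygen in other tissues, had group means of 5.49 to 5.67. Ndufa4, which the symbol rule counts in complex I although its protein is known as a subunit of complex IV, had 12.39 to 12.45. Testis isoforms Cox6b2 and Cox8c had group means of 6.77 to 7.09 and 7.40 to 7.53, and Cox6b1 had 12.20 to 12.29. The 3 genes for the c subunit of complex V encode the same mature protein. Their group means were 10.98 to 11.13 for Atp5g1, 10.42 to 10.59 for Atp5g2 and 12.87 to 13.01 for Atp5g3. None of these genes was called in any of the 7 comparisons.

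At 7 and 14 days after noise, 0 members passed the test against controls in limma. At 7 days 0.022% of all genes were called, and at 14 days 0%. At an unadjusted p under 0.05, 3 members were higher and 0 lower at 7 days, where 5.97% of all genes were higher and 5.21% lower. At 14 days 4 members were higher and 1 lower, where 5.01% of all genes were higher and 2.84% lower. The median difference was -0.003 at 7 days, against 0.01 for all genes, and 0.007 at 14 days, against 0.02. The 95% intervals lay within 1.2-fold for 69 members (87.3%) at 7 days and 70 (88.6%) at 14 days, against 37.4% and 40.8% of all genes. By complex, the medians at 7 days were -0.012 (I), 0.037 (II), 0.007 (III), 0.033 (IV) and -0.003 (V), and at 14 days -0.008, 0.03, 0.012, 0.005 and 0.01 in the same order.

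Uqcrc1, a core subunit of complex III, had the smallest p of the members at 7 days. Its difference from controls was 0.19 ± 0.06 at 7 days (adjusted p = 0.277) and 0.14 ± 0.06 at 14 days (adjusted p = 0.601). Sdha had 0.12 ± 0.04 (adjusted p = 0.314) and 0.09 ± 0.04 (adjusted p = 0.605) at those times. Cox8a, the ubiquitous isoform of subunit 8, had 0.13 ± 0.05 (adjusted p = 0.379) and 0.16 ± 0.05 (adjusted p = 0.528). On the lower side, the complex I subunit Ndufa5 had -0.15 ± 0.07 at 7 days (adjusted p = 0.46) and -0.12 ± 0.07 at 14 days (adjusted p = 0.71). These comparisons with controls share the same 3 control arrays.

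Between 1 and 7 days, 3 members passed the test, 3 higher at 7 days and 0 lower, where 9.35% of all genes were called. Uqcrc1, Cox5a and Sdha belong to complexes III, IV and II. At an unadjusted p under 0.05, 13 members (16.5%) were higher and 2 (2.53%) lower, where 14.4% of all genes were higher and 11.4% lower. The share of members called at an adjusted p under 0.05 was below that of all genes. At an unadjusted p the member share was slightly above that of all genes for higher values and below it for lower values. Of 79 members, 58 had a positive difference, with a median of 0.04, against 0.023 for all genes. Of the 14 macrophage markers tested, 10 were lower at 7 days than at 1 day and 0 higher, with list means of 6.74 to 7.38 at 7 days, against 7.72 to 7.90 at 1 day. Of the Schwann cell and myelin markers 4 of 11 were higher, and of the neuron markers 3 of 20. Their part in the member calls was not tested. Without the second 1-day array, 1 of the 3 calls, Uqcrc1, was left, and the median was 0.0067. Without the first 1-day array or the third 7-day array, 6 members were called.

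Uqcrc1 had log2 values of 11.09, 11.23 and 11.09 at 7 days, against 10.89, 10.83 and 10.80 at 1 day. All 3 arrays at 7 days lay above the 3 at 1 day, and the difference was 0.30 ± 0.06 (1.23-fold, adjusted p = 0.00821). Controls had 10.86, 10.99 and 10.98, the immediate group 10.95, 10.86 and 10.74, and the 14-day group 11.10, 11.10 and 11.05. The 7- and 14-day arrays were thus the highest of the series for this gene. With sex as a term the difference between 7 days and 1 day was 0.25 (adjusted p = 0.0542). The gene has 1 probe set.

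Sdha, the flavoprotein of succinate dehydrogenase and a part of both the respiratory chain and the citric acid cycle, had 11.63, 11.58 and 11.54 at 7 days, against 11.40, 11.40 and 11.49 at 1 day. The groups did not overlap, and the difference was 0.15 ± 0.04 (1.11-fold, adjusted p = 0.0297). With sex as a term it was 0.16 (adjusted p = 0.0837). The call ended without the first or second 1-day array and without the first or second 7-day array, with adjusted p values up to 0.12. It also ended without the trend of the variance (adjusted p = 0.0857), with array weights (0.0688), with the mean over probe sets (0.0617) and with the 2 groups fitted alone (0.171). The second probe set gave 0.21 ± 0.04 (adjusted p = 0.00887, in a fit without a sex term) and a dim one, near the filter, 0.10 ± 0.10. The other Sdh genes, the iron-sulfur subunit Sdhb and the membrane anchors Sdhc and Sdhd, were not called in any comparison.

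Cox5a had 12.98, 13.03 and 12.87 at 7 days, against 12.79, 12.71 and 12.74 at 1 day. Its difference was 0.21 ± 0.05 (1.16-fold, adjusted p = 0.0112), and with sex as a term 0.20 (adjusted p = 0.057). Without the second 1-day array its adjusted p was 0.0573. The other 2 probe sets of Cox5a, at means of 12.75 and 12.17, gave 0.00 and -0.12 in the same comparison, so the call rested on 1 of 3 probe sets. The mean over the 3 gave 0.03 (adjusted p = 0.676).

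**Figure D4:**
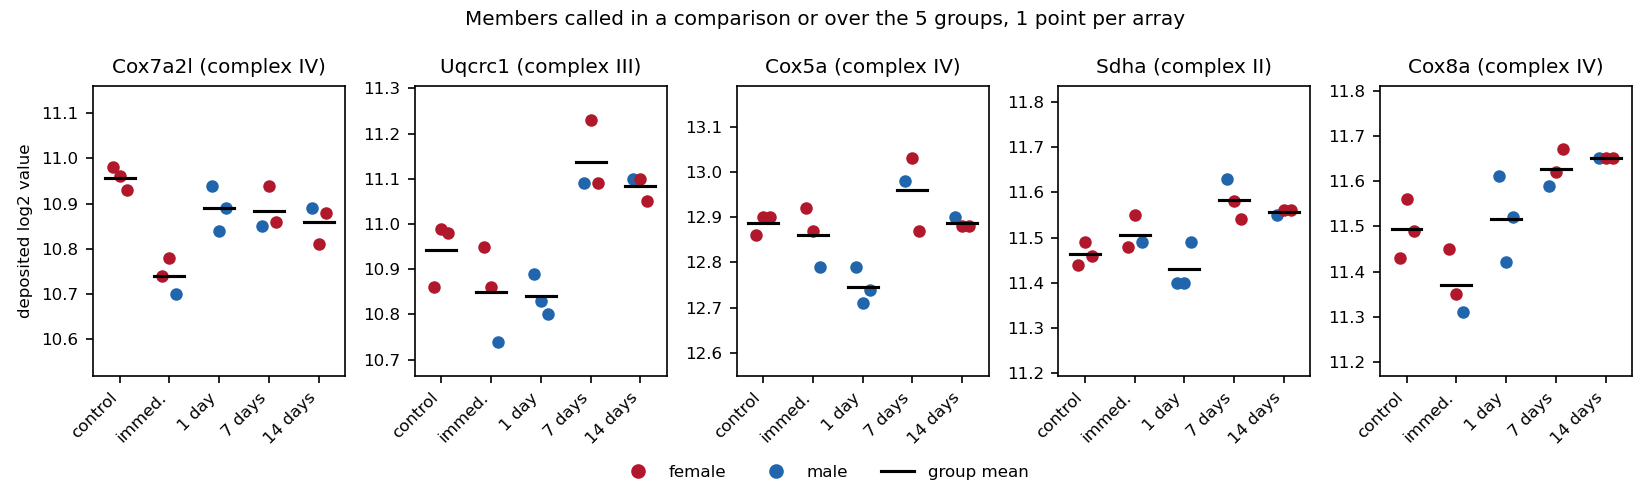
Deposited log2 values (y axis, equal spans) of the 5 members called in a comparison or over the 5 groups, by group (x axis), 1 point per array coloured by sex, with bars for group means. Cox7a2l is lowest immediately after noise, and Uqcrc1, Cox5a and Sdha are higher at 7 days than at 1 day in all arrays.

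From the immediate time to 1 day, 0 members passed the test in limma, where 8.39% of all genes were called. At an unadjusted p under 0.05, 7 members were higher at 1 day and 2 lower, where 12.1% of all genes were higher and 12.3% lower. Without the first immediate array 1 member was called, without the first or the second 7-day array 2, and without the third 7-day array 3. The smallest p values were those of Cox7a2l at 0.15 ± 0.04 (adjusted p = 0.0506), Atp5g2 at 0.16 ± 0.05 (adjusted p = 0.0582) and Ndufb3 at 0.16 ± 0.05 (adjusted p = 0.068). By its second probe set Sdha was called lower at 1 day than immediately after noise, with a difference of -0.18 (adjusted p = 0.019). That came from the fit of all probe sets by themselves, without a sex term. Between these times 10 of 14 macrophage markers were higher at 1 day and 0 lower, 8 of 20 neuron markers were lower and 2 higher, and 3 of 11 Schwann cell and myelin markers were lower and 0 higher. Their part in the values was not tested. Between 7 and 14 days 0 members were called in limma and 0 had an unadjusted p under 0.05. There 0% of all genes were called, and at an unadjusted p under 0.05 1.4% were higher and 0.696% lower. The member differences between 14 and 7 days ran from -0.12 to 0.12.

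Over the 5 groups together, the moderated F test called 2 members, Uqcrc1 (adjusted p = 0.0145) and Cox8a (adjusted p = 0.0219), where 6.75% of all genes were called. Cox8a had 11.43, 11.56 and 11.49 in controls, 11.45, 11.35 and 11.31 immediately, 11.61, 11.42 and 11.52 at 1 day, 11.59, 11.62 and 11.67 at 7 days, and 11.65, 11.65 and 11.65 at 14 days. Its lowest group was the immediate one and its highest the 14-day one. The second bright probe set of Cox8a gave -0.11 immediately and 0.12 at 7 days against controls, close to the -0.12 and 0.13 of the first. Without the second or the third immediate array 1 member was called, without the first 1-day or first 7-day array 4, and without the third 7-day array 5. At an unadjusted p under 0.05 the F test named 11 of 79 members (13.9%) and 26.8% of all genes. With sex as a term, 0 members were called in any of the 7 comparisons, both F calls remained, and the male minus female difference was called for 0 members, with a median of -0.015.

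Genes that build and regulate the respiratory complexes were read from lists of their own. Among 16 complex I assembly factors, 1 passed the test at 1 day against controls, where 3.18% of all genes were called. Tmem126b, a complex I assembly protein, had 6.81, 6.41 and 6.37 at 1 day, against 7.26, 6.91 and 6.97 in controls, and fell by 0.52 ± 0.13 (adjusted p = 0.045, and 0.216 with sex as a term). It was higher at 7 days than at 1 day by 0.81 ± 0.13 (adjusted p = 0.00266, and 0.0176 with sex as a term). Among 9 assembly factors of complexes II and III tested, Uqcc3 was lower at 1 day, with a difference of -0.26 ± 0.06 (adjusted p = 0.031, and 0.216 with sex as a term). In the lists for complex IV (19 tested) and complex V (4 tested), 0 genes were called against controls. Of 17 respiratory chain genes listed outside the symbol rule, 4 had a probe set and 3 were tested. These 3, the subunits Cyc1 and Ndufab1 and cytochrome c (Cycs), were not called either.

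Of 17 regulators of mitochondrial biogenesis, 2 were lower and 0 higher at 1 day than in controls, where 3.18% of all genes were called. Yy1, the factor whose core was counted in the promoters, had 9.07, 8.95 and 8.80 at 1 day, against 9.25, 9.21 and 9.32 in controls, and fell by 0.32 ± 0.06 (adjusted p = 0.0158, and 0.0873 with sex as a term). Polg2, the accessory subunit of the mitochondrial DNA polymerase, was lower, with a difference of -0.36 ± 0.09 (adjusted p = 0.039, and 0.0724 with sex as a term). Between 1 day and the immediate time, where 8.39% of all genes were called, 3 regulators were lower at 1 day. They were the coactivators Ppargc1b (-0.38 ± 0.11) and Pprc1 (-0.60 ± 0.16), and Tfb1m (-0.40 ± 0.09). Pprc1 had 6.54, 6.44 and 6.25 at 1 day, against 7.11, 6.76 and 7.15 immediately after noise and 6.40, 6.05 and 6.57 in controls. Means in controls, immediately and at 1 day were 8.28, 8.42 and 8.04 for Ppargc1b and 7.67, 7.96 and 7.56 for Tfb1m. None of these 3 regulators was called against controls.

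Of 14 glycolysis genes, 1 was higher at 1 day than in controls, where 3.18% of all genes were called. Ldha, which makes lactate, had 10.08, 10.10 and 10.14 at 1 day, against 9.62, 9.79 and 9.76 in controls. The difference was 0.38 ± 0.09 (adjusted p = 0.0406 in limma, and 0.109 with sex as a term). Ldha was already at 10.10, 10.02 and 10.24 immediately after noise, where it did not pass the test against controls. Between 7 days and 1 day, where 9.35% of all genes were called, 4 glycolysis genes were higher and 0 lower, namely Pfkm (0.25 ± 0.06), Eno2 (0.28 ± 0.08), Pkm (0.17 ± 0.04) and Ldhb (0.19 ± 0.05). Of 22 citric acid cycle genes, 0 were called against controls, and Dlst (0.24 ± 0.06) and Idh3a (0.18 ± 0.05) were higher at 7 days than at 1 day, a share near that of all genes. Of 7 creatine kinase and creatine transport genes, 1 was called in that comparison. Ckb, the brain creatine kinase, had 12.85, 12.86 and 12.78 at 7 days, against 12.64, 12.52 and 12.54 at 1 day, a difference of 0.26 ± 0.05 (adjusted p = 0.00409, and 0.0252 with sex as a term). Between 1 day and the immediate time, the called genes of the assembly and fuel lists were Tmem126b (-0.66), Coa6 (-0.24), Tmem70 (-0.24), Idh3a (-0.18) and Ckb (-0.17), all lower at 1 day, and Suclg2 (0.41) and Slc6a8 (0.24), both higher. Between 7 days and 1 day, Uqcc1 (0.25), Uqcc3 (0.21) and Yy1 (0.25) were higher as well. Among 7 adenine nucleotide carriers and uncoupling proteins tested, 0 were called. Immediately after noise, and at 7 and 14 days, 0 genes of these pathway lists were called against controls. With sex as a term, 0 were called against controls at any time, and the calls between consecutive times that remained were those of Tmem126b, Tfb1m, Dlst and, between 7 days and 1 day, Ckb.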

How the data were processed

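Expression arrays measured auditory nerve RNA of 15 animals, 1 animal per array. The deposited log2 values were used as the authors gave them. The submitters' processing notes name Affymetrix Expression Console, RMA and MAS5, without saying which of RMA and MAS5 gave the log2 values (not given in the sources used here). Near background such signals compress, so differences of dim genes are understated. Of 45101 probe sets, 34945 named 1 gene, 932 several and 64 were controls. Of 9 probe sets naming several genes with a member symbol, 8 were tested apart and 0 were called (smallest adjusted p = 0.103). No 2 arrays shared more than 3.67% of identical values.

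A single limma model (version 3.58.1, R 4.3.3) held all 15 arrays and the 5 groups, with 10 residual degrees of freedom and the trend option of eBayes. Two-sided p-values were adjusted by Benjamini-Hochberg over 13644 genes within each of 7 comparisons, and an adjusted p under 0.05 was a call. Errors beside differences are standard errors, and the number of arrays limits the precision. The functions were tested on simulated data.

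Members and gene lists were chosen with earlier results of these data known. Genes were named if they were called, had the smallest p in a direction, had the highest or lowest probe set mean of a complex, belonged to an isoform pair or led a list among its calls. Other genes were chosen after their values were seen. Alternatives were sex as a term, other filters, probe set means and single probe sets, no trend, array weights, the compared groups alone, quantile normalization, the replicate number as a block and each array left out. Female arrays alone were added after the data were seen.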

Additional observations from a re-analysis of the deposited data

Results flagged for a closer look

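The difference between 7 days and 1 day after noise was itself tested, and it passed the threshold for 3 oxidative phosphorylation genes. On the log2 scale it was 0.30 for Uqcrc1, 0.21 for Cox5a and 0.15 for Sdha, each higher at 7 days. The 3 animals at 1 day were male, while 1 of the 3 at 7 days was, and with sex as a term the adjusted p values were 0.0542, 0.057 and 0.0837 in that order. For Cox5a the other 2 probe sets gave 0.00 and -0.12.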

How the results depend on the processing

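Counts of called members were small and moved with the settings. Immediately after noise, 1 member was called against controls, and 0 with sex as a term, without the trend, with the compared groups alone or, added after the data were seen, in female arrays alone, 2 with array weights, and 0 to 1 with an array left out. At 1 day against controls the count was 0, and 2 with array weights, 1 with the compared groups alone and 0 to 1 with an array left out. For 1 day against the immediate time it was 0, and 1 without a filter, 2 with the lowest 50% left out, 1 with probe set means, 3 with array weights, 1 with the compared groups alone and 0 to 3 with an array left out. For 7 days against 1 day it was 3, and 0 with sex as a term, 1 with probe set means, 2 without the trend or with array weights, 0 with the compared groups alone, 6 with quantile normalization and 1 to 6 with an array left out. The F test called 2, and 5 with the lowest 50% left out, 1 without the trend, 7 with array weights, 5 with quantile normalization and 1 to 5 with an array left out. Without a filter the count was 4 for 7 days against 1 day and 3 for the F test. The added gene in both, and the 1 called between 1 day and the immediate time, was Ndufb4, at a mean of 4.32. It was called lower at 1 day than immediately and higher at 7 days than at 1 day, without a sex term. With the lowest 50% left out the count for 7 days against 1 day was also 4, and with probe set means the F test called 3. The cause of these moves was not tested. The counts at 7 and 14 days against controls and at 14 against 7 days were 0 under every alternative run. The medians of the members moved by less than the replicate SD of 0.0453, except that between 7 days and 1 day the median was 0.0883 without the first 1-day array, against 0.04 with all arrays. With an array left out the medians against controls ran from -0.08 to -0.035 immediately, -0.09 to -0.015 at 1 day, -0.0067 to 0.0083 at 7 days and -0.0033 to 0.0217 at 14 days.

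With the replicate number as a block, 1 member was called immediately, 3 between 7 days and 1 day, 2 by the F test and 0 in the other comparisons, so no call changed. Of 21 pairs of arrays with the same number, 7 correlated above 0.1 (r from -0.33 to 0.30), so the numbers are not taken to pair animals.

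Single probe sets gave the opposite sign for Uqcrc2 (-0.087 immediately, 0.093 at 7 days against 1 day), Atp5pb (-0.097 immediately), Sdha (-0.047 at 7 days, -0.01 and -0.06 at 14 days, 0.043 at 1 day against the immediate time), Ndufc2 (0.023 and 0.19 at 7 days), Ndufb11 (0.043 at 14 days) and Cox5a (-0.12 at 7 days against 1 day, 0.017 and 0.03 at 14 against 7 days). With probe set means Atp5pb had -0.02 immediately and Ndufc2 0.022 at 7 days. Sex and group overlap, since controls are all female and 1-day animals all male, and the female arrays alone leave 1 day out. With 3 animals a group, the member intervals had a median SE of 0.0564, and Ndufb4 and Cox7b2 were left out of the main fit by the filter.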
